A study of Mus musculus with 9 samples.

Results

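The baseline transcriptome described here is that of KSL cells from control mice, measured on 3 of the 9 arrays of the series. KSL cells are the bone marrow fraction that carries c-Kit and Sca-1 and lacks lineage markers and the interleukin 7 receptor, and it holds the blood stem cells together with their earliest multipotent progeny. The control mice were C57BL/6 and homozygous for a floxed Runx1 allele without the Mx-Cre transgene (Runx1 floxed/floxed MxCre-/-). Their cells were sorted 3 months after a treatment with poly IC, so the controls had received the inducer of Mx-Cre and carried the floxed alleles, and they are not untreated wild-type mice. The other 6 arrays hold KSL cells of Runx1-knockout mice and of mice expressing RUNX1(41-214) and are not compared here. The labels call the 3 control arrays biological replicates. They do not say how many mice each array stands for, so the spread among arrays is that of sorted samples and not necessarily of single mice. A total of 12393 genes was ranked by the mean of log2(signal + 16) over the 3 arrays, each gene taken at its brightest probe set.

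Blood stem cells are rare, largely resting cells that express transcription factors of self-renewal such as Gata2, Meis1 and Hoxa9 and receptors for niche ligands such as Kit. Their multipotent progeny in the same gate divide more often and transcribe, at low level and in varying mixtures, genes of the erythroid, megakaryocytic, myeloid and lymphoid programmes before they commit to one of them. A bulk array of sorted KSL cells therefore reads a mixture, in which fewer cells of a type and less RNA per cell cannot be told apart.

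The signal of a probe set depends on its own oligonucleotides, so the ranking orders signals and is not a ranking of transcript amounts. Genes were put in 3 bands. A gene was called bright when its mean was among the highest 10% of all genes, which began at 10.90 on the log2 scale, a signal of 1891. A gene was called near background when its mean was no higher than 6.38, a signal of 67.1, the level under which 90% of 116 genes typical of other organs lay. The genes between these limits were called intermediate. The median gene stood at 8.005 on this scale, a signal of 241. By these limits 1239 genes were bright, 6686 (53.9%) were intermediate and 4468 (36.1%) were near background. Among list members, Tnni3 at 6.40, Nkap at 6.41 and Apoa2 at 6.41 lay just above the background limit, and Jam3 at 6.37, Jag1 at 6.37 and E2f3 at 6.36 lay just below it. The 20 brightest genes gave 1.97% of the signal summed over all genes, the brightest 100 gave 7.67% and the 1239 bright genes gave 45.8%.

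**Figure D1:**
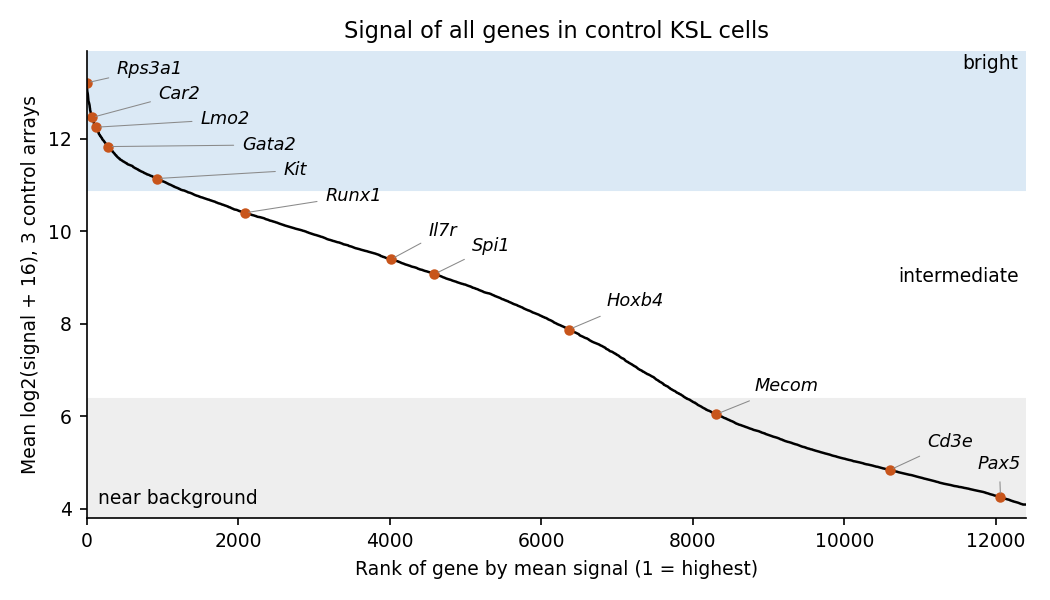
Mean log2(signal + 16) over the 3 control arrays (y axis) of the 12393 genes in order of rank (x axis), with 12 genes named and the bright and near-background bands shaded in blue and grey. The curve leaves the bright band after rank 1239, and the last 4468 genes lie in the near-background band.

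The 3 arrays ranked the genes much alike. Across the 12393 genes, which are not independent replicates, Spearman's rho was 0.972 between replicates 1 and 2, 0.981 between replicates 1 and 3 and 0.975 between replicates 2 and 3. The ratio of 3′ to 5′ probe sets of Gapdh, a sign of RNA length and of amplification, was 1.84 on the log2 scale in replicate 2 against 1.16 in replicate 1 and 1.24 in replicate 3. The same ratio of Actb was 0.49, 0.99 and 0.87 in replicates 1, 2 and 3, so that replicate 3 lay near replicate 2 in it. With 1 group of 3 arrays no test was made, and what follows is a description. Near background does not mean that a transcript is absent: probe sets of Rpl39 (5.02), Rps27 (5.73) and Tyms (5.97), genes that growing cells use, were also near background. Of the 3919 genes above background with more than 1 probe set, 1635 (41.7%) had another probe set near background.

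The sort could be checked on its own markers. Kit, the receptor for stem cell factor and the positive marker of the gate, was bright, with log2 signals of 11.30, 11.10 and 11.01 in replicates 1, 2 and 3. Another probe set of Kit read 8.33. The second positive marker, Sca-1, is not analysed here. Of the 9 measured markers of cells that the gate excludes, 7 were near background. These were Cd3e (4.83), Cd4 (4.74), Cd8a (5.57), Cd5 (5.36) and Cd2 (5.28) of T cells, Cd79a (5.54) of B cells and Itgam (5.10) of myeloid cells. Ptprc, which encodes CD45 and is carried by nearly all blood cells, was bright at 11.99 ± 0.21 (SD, n = 3). Its product is a lineage marker only in its B cell isoform, which a probe set for the whole gene does not single out. The exception was Il7r, the interleukin 7 receptor chain whose protein the gate selects against, at 10.45, 8.22 and 9.50 in the 3 arrays. All 3 values lay above the background limit, and replicate 2 was the lowest.

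The machinery of protein synthesis held the top of the ranking. Of the 20 brightest genes, 13 belonged to the list of cytosolic ribosomal proteins, 3 to the translation factors and 1 to the subunits of the respiratory chain. Rps3a1, also a protein of the small ribosomal subunit but named in a form the list did not take in, led with signals of 9850, 9586 and 8861, followed by Rpsa (13.18), Rpl13a (13.18) and Eef1a1, the elongation factor that brings aminoacyl-tRNA to the ribosome (13.13 ± 0.004, SD, n = 3). Of 42 measured ribosomal protein genes 36 were bright, 4 intermediate and 2 near background, with a median of 12.56 beside 8.005 over all genes. Of 36 translation factors 31 were bright and 5 intermediate, among them Pabpc1, the poly(A)-binding protein, at 13.00 and Tpt1 at 12.99. Pebp1 (13.00) and Serbp1 (12.89) were among the 20 brightest genes outside these lists. The ranking left out 691 probe sets with several symbols and 1555 with none. Controls apart, the highest signal of any probe set was 10590, 20215 and 13421 in replicates 1, 2 and 3, above those of Rps3a1.

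Ribosomal protein genes are known for a run of pyrimidines across their transcription start, the site that ties their translation to growth signals, and it could be looked up here because it lies in the promoter windows. In the RefSeq promoters (GRCm38.p6, 250 bases before to 50 after the first start listed for a gene) a run of at least 8 pyrimidines over the first transcribed base was found in 13 of 37 ribosomal protein genes (35.1%), in 5.28% of bright genes, in 4.01% of the genes of the arrays and in 3.82% of all 27025 promoters. The run is marked in capitals in 60 bases, from 40 before the start to 20 from it, of Rplp2 and Rpl7a, Rps18 and Rpl38, each on its coding strand (chr7:141447611-141447670, plus; chr2:26910767-26910826, plus; chr17:33955646-33955705, minus; chr11:114668540-114668599, plus).
Rplp2: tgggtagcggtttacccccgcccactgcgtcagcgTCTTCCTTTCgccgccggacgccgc
Rpl7a: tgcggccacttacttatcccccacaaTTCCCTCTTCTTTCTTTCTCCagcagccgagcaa
Rps18: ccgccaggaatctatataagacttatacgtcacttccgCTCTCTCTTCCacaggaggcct
Rpl38: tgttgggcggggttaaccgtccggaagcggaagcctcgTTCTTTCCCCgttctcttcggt
Rplp2 (13.05 ± 0.08), Rps18 (12.96 ± 0.06) and Rpl7a (12.87 ± 0.11; SD, n = 3 each) were among the 20 brightest genes. Sequences were shown only for genes that held a run, and brighter ribosomal protein genes were passed over. The letters CCGGAAG or their reverse complement, a form of the site bound by ETS factors, stood in 18 of the 37 ribosomal promoters (48.6%), in 15.02% of the genes of the arrays and in 9.12% of all promoters.

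Other lists of general cell functions were largely bright or intermediate. Of 78 measured subunits of oxidative phosphorylation 49 were bright, with Uqcrb of complex III at 13.05, Atp5a1 of the ATP synthase at 12.38 and Cox4i1 of complex IV at 12.37. Cox8b, the heart and muscle form of a complex IV subunit, was near background at 4.09. Of 32 glycolytic and hypoxia-response genes 10 were bright and 6 near background. Ldha, lactate dehydrogenase A, stood at 12.50 and Pgk1 at 12.17, while Epas1, which encodes the hypoxia factor HIF-2 alpha, was near background at 4.13. The proteasome had 21 bright and 21 intermediate members of 42, led by Psma3 at 12.20, and ER chaperones had 17 bright and 18 intermediate of 35, led by Sec61b at 12.21 and Hspa5 at 12.06. Actb, cytoplasmic actin, read 12.78 ± 0.01 (SD, n = 3), and 25 of 44 genes of the actin cytoskeleton were bright.

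Most high mobility group and histone genes were bright. Of 19 high mobility group and histone genes 15 were bright, led by Macroh2a1 (12.73), Hmgn1 (12.47) and Npm1 (12.45). Of 44 Polycomb, DNA methylation and chromatin genes 15 were bright, 25 intermediate and 4 near background, with a median of 10.27, and 8 were bright when the probe sets of a gene were averaged. Rbbp7 and Rbbp4, histone chaperones shared by several chromatin complexes, stood at 12.57 and 11.94 and the insulator protein Ctcf at 11.62. Ezh2, the methyltransferase of Polycomb complex 2, read 11.42 ± 0.08 (SD, n = 3), and Dnmt1, the maintenance DNA methyltransferase, 11.09 ± 0.20 (SD, n = 3), both named after their values were seen. Dnmt3l, a cofactor of DNA methylation in germ cells, was near background at 4.31.

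**Figure D2:**
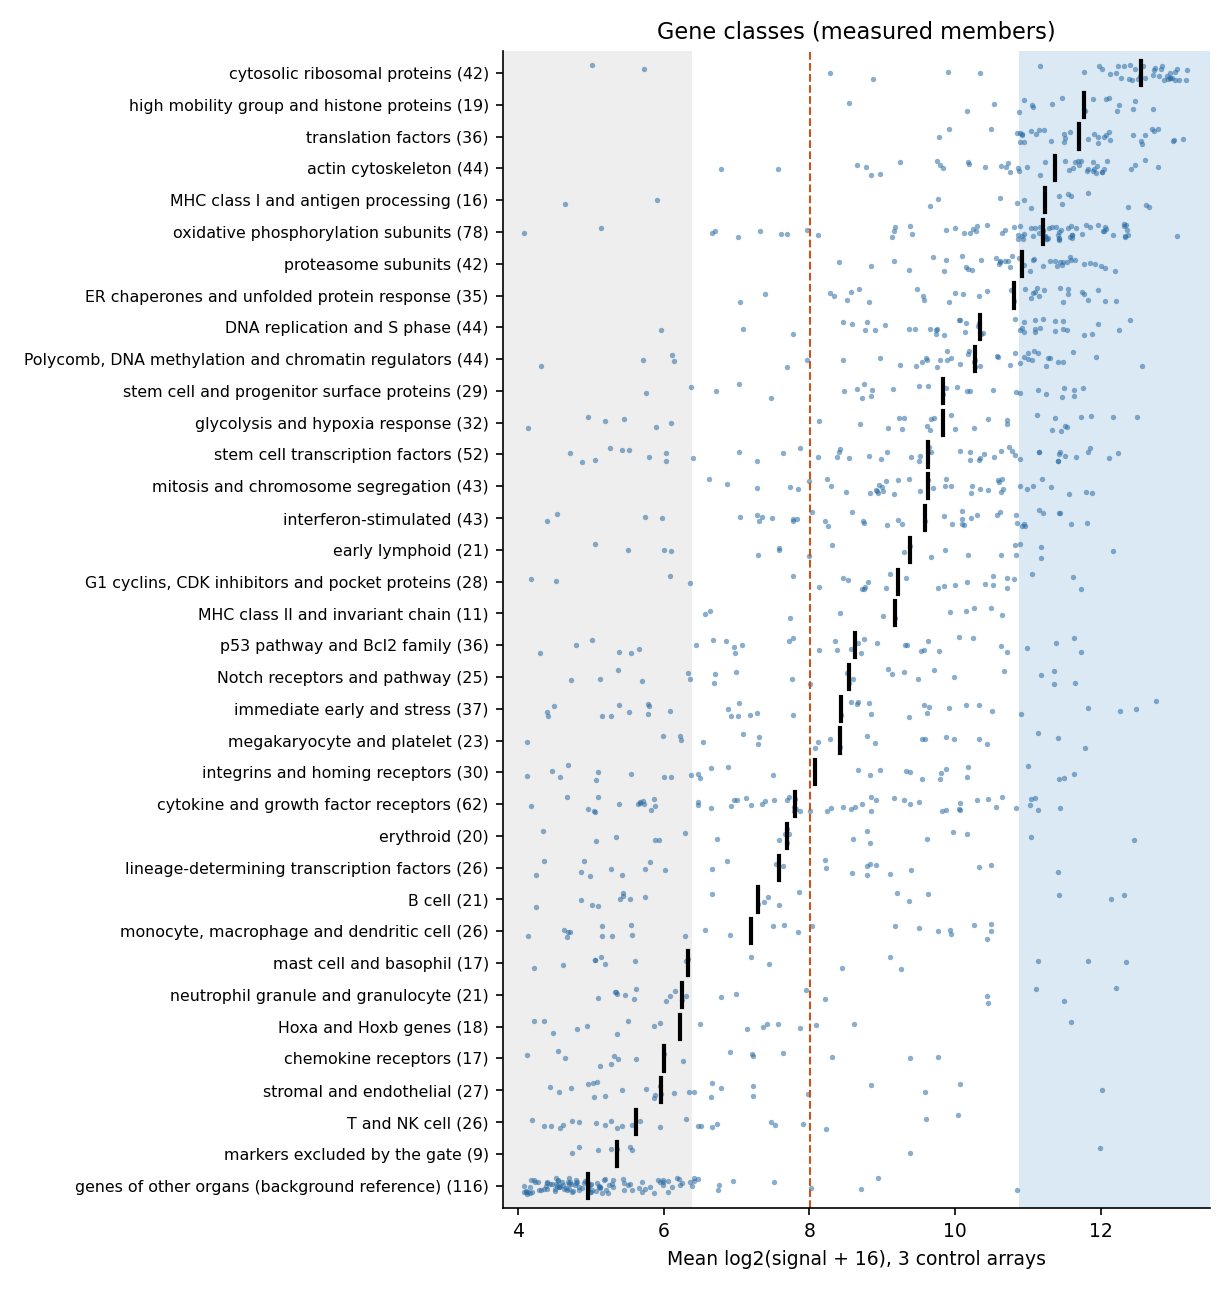
Mean log2(signal + 16) over the 3 control arrays (x axis) of the measured members of each list, one point per gene and one row per list with its number of members; bars mark list medians, the dashed line the median of all genes (8.005), and blue and grey shading the bright and near-background bands. List medians run from 12.56 for ribosomal proteins to 4.97 for the genes of other organs.

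Among 52 measured transcription factors tied to stem and progenitor cells 12 were bright, 31 intermediate and 9 near background, with a median of 9.63. The brightest was Lmo2, the bridge protein of the Tal1 and Gata complexes, with signals of 5170, 5723 and 3925 in replicates 1, 2 and 3 and a mean of 12.25 ± 0.22 (SD, n = 3). Myb, needed for definitive blood formation, read 12.11 ± 0.32 and Cbfb, the partner of the Runx proteins, 11.85 ± 0.21 (SD, n = 3 each). Gata2, a factor of stem cell maintenance, read 11.85, 11.84 and 11.80, and no array stood apart. The next were Sox4 (11.66), Meis1 (11.52), Hlf (11.44), Lyl1 (11.43), Nfe2 (11.42), Hhex (11.41) and Foxo3 (11.15). Ikzf2 was the dimmest, at 4.71. Of members named after their values were seen, Tal1 read 11.15 ± 0.06 (SD, n = 3), while Mecom (6.04) and Erg (6.03), which are also factors of stem cells, were near background on the probe sets of this array.

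Runx1, the gene that carries the floxed alleles and is also named after its values were seen, was intermediate, with 10.72, 9.88 and 10.58 in the 3 arrays. Replicate 2 was the lowest, and the other 4 probe sets of Runx1 read from 5.88 to 8.01. Of 18 measured Hoxa and Hoxb genes 1 was bright, 8 intermediate and 9 near background. Hoxa9, which drives progenitor expansion together with Meis1, stood alone at 11.59 ± 0.16 (SD, n = 3). Its other probe set read 7.49. Hoxa5 (8.61) and Hoxa7 (8.09) followed, and Hoxb13, a posterior gene, was at 4.22. Hoxb4, known for expanding stem cells when overexpressed, read 7.87 and is named after its value was seen.

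The factors that direct single lineages fell in the 3 bands in shares not far from those of all genes. Of 26 measured ones 1 was bright (3.85%, against 10% of all genes), 15 intermediate and 10 near background (38.5%, against 36.1%). Their median was 7.59, beside 8.005 over all genes. Nfe2, which also stands in the list of stem cell factors, was the bright one. With the probe sets of a gene averaged, 2 were bright. Irf8 of monocytes and dendritic cells read 10.50 ± 0.61 and Zfpm1, the partner of Gata1, 10.33 ± 0.42 (SD, n = 3 each). Klf1, the erythroid factor, was at 6.87, 10.63 and 9.03 in replicates 1, 2 and 3, and Gata1, which drives erythroid and megakaryocytic genes, at 7.62, 9.62 and 9.14. Both were lowest in replicate 1 and highest in replicate 2. Cebpa, the granulocyte and monocyte factor, read 8.58 ± 0.59 and Gata3, the T cell factor, 8.23 ± 0.25 (SD, n = 3 each). Pax5, the factor that fixes B cell identity, was at 4.25 ± 0.02 (SD, n = 3), near background in every one of the 3 arrays.

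**Figure D3:**
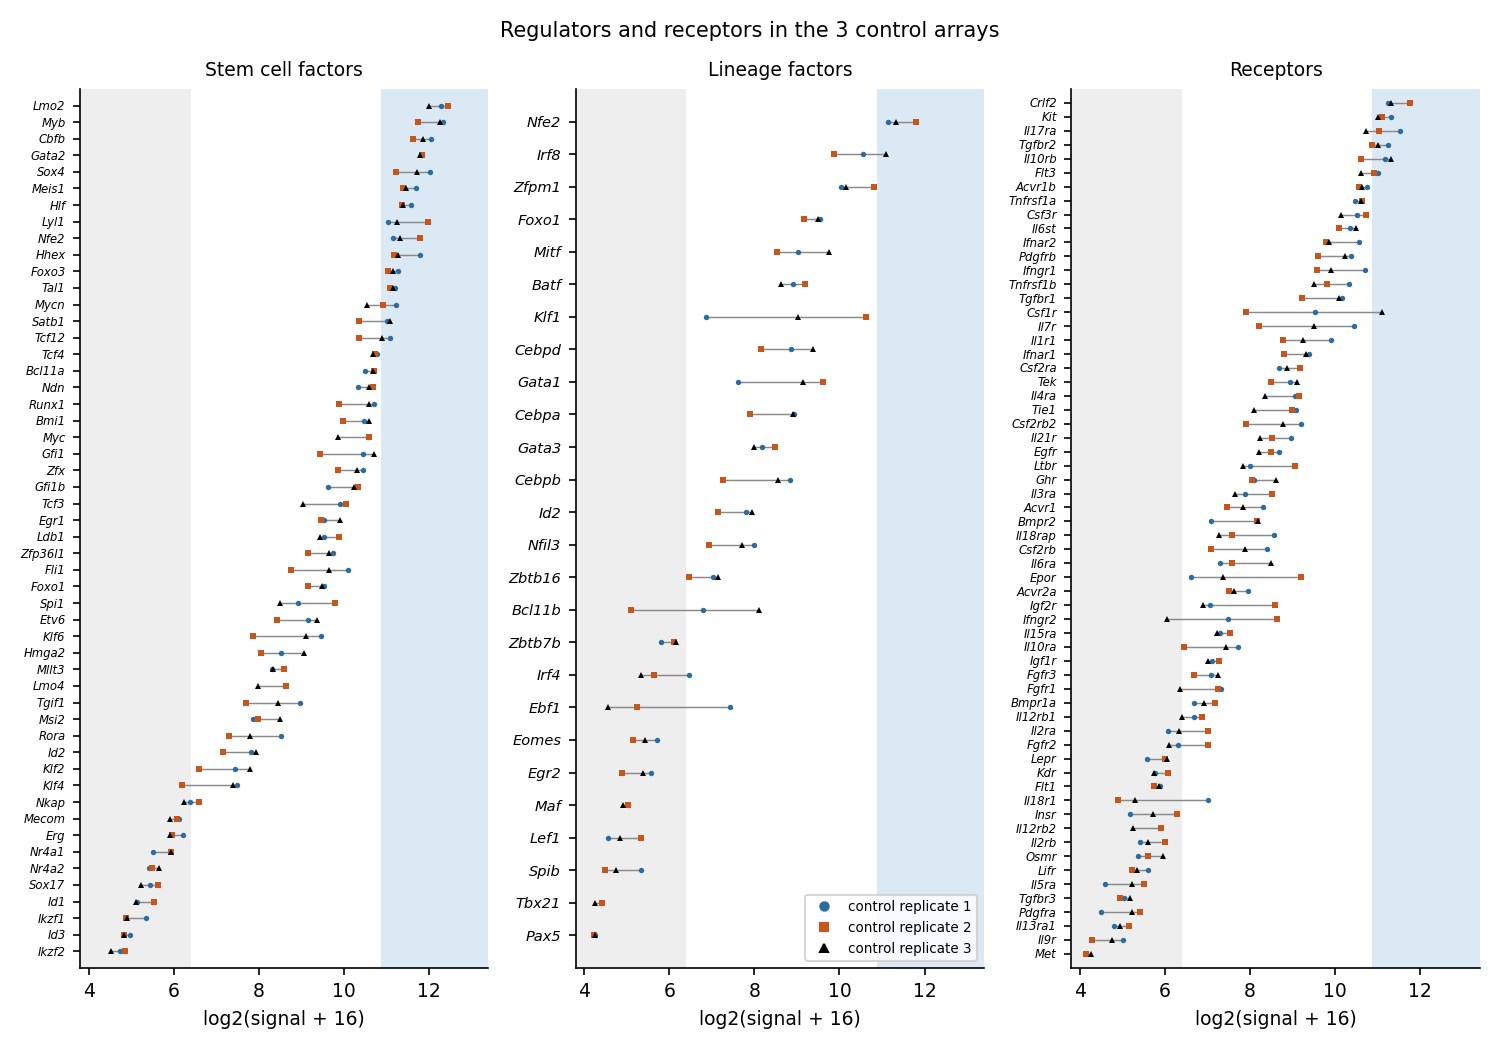
Log2(signal + 16) (x axis) of stem cell factors, lineage factors and cytokine receptors, with a marker per control array and a line over their range; blue and grey shading are the bright and near-background bands. Gata2 lies between 11.80 and 11.85 in the 3 arrays, while Klf1 spans 6.87 to 10.63.

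Of 29 measured surface proteins of stem and progenitor cells 8 were bright and 2 near background, with a median of 9.84. Cd34, a sialomucin of progenitors, stood at 11.76 ± 0.18, Cd93 at 11.64 ± 0.09 and Cd47, the signal that protects cells from phagocytosis, at 11.63 ± 0.18 (SD, n = 3 each). Prom1, a marker of human stem cells, was near background at 5.76. Of the surface markers that divide the KSL gate further, named after their values were seen, Procr read 11.25 ± 0.06 and Cd48, carried by the progenitors, 10.52 ± 0.07 (SD, n = 3 each). Slamf1, carried by the stem cells, was at 8.26, 8.58 and 9.40. Its value was highest in replicate 3, while Procr and Cd48 differed little among the arrays.

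Of 62 cytokine and growth factor receptors 5 were bright (8.06%, against 10% of all genes), 42 intermediate and 15 near background. Their median was 7.81. Besides Kit the bright ones were Crlf2, a receptor of thymic stromal lymphopoietin, at 11.44, Il17ra at 11.10, Tgfbr2, through which TGF-beta restrains stem cells, at 11.04 and Il10rb at 11.03. Flt3, the receptor that marks multipotent progenitors with lymphoid potential, read 11.01, 10.91 and 10.61, just below the bright limit on average. It was followed by Acvr1b (10.65), Tnfrsf1a (10.57), Csf3r, the G-CSF receptor (10.46), Il6st (10.31) and Ifnar2 (10.07), and Met was the dimmest at 4.18. Csf1r, the receptor of macrophage colony-stimulating factor, was at 9.53, 7.90 and 11.09, lowest in replicate 2 and highest in replicate 3. Epor, the erythropoietin receptor, was at 6.60, 9.20 and 7.36, highest in replicate 2. Of the 47 receptors above background 17 had an SD above 0.5, against 13.6% of all genes above background.

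Homing receptors fell in all 3 bands. Of 17 chemokine receptors 0 were bright, 7 intermediate and 10 near background. Ccr2, which draws cells to inflamed tissue, read 9.77 ± 0.53 (SD, n = 3). Cxcr4, which holds stem cells in the marrow, was at 9.71, 8.55 and 9.88, lowest in replicate 2. Ccr9 (8.31), Ccr1 (7.63), Ackr1 (7.23) and Cxcr3 (7.22) came next, and Ccr8 was at 4.13. Of the 7 above background 6 were highest in replicate 3, against 33.2% of all genes above background. Among 30 integrins and other homing receptors 4 were bright (13.3%, against 10% of all genes). Among them were Cd44, which binds hyaluronan, at 11.50 ± 0.28, Selplg, the selectin ligand, at 11.42 ± 0.03 and Itga6, a laminin receptor, at 11.00 ± 0.19 (SD, n = 3 each). Cd47, described above, was the fourth. They were followed by Itgb2 at 10.17, Esam at 10.16 and Itga2b, the megakaryocyte integrin, at 9.87 ± 0.02 (SD, n = 3). Itgb3, its partner on platelets, was near background at 4.13.

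Of 25 members of the Notch list 4 were bright. Notch2 stood at 11.65, the protease Adam10 that cleaves Notch at 11.36, Psenen of the gamma-secretase at 11.36 and Notch1 at 11.19 ± 0.27 (SD, n = 3). The target gene Hey1 was near background at 4.73 and the ligand gene Jag1 at 6.37.

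Of 21 early lymphoid genes 3 were bright (14.3%, close to the 10% of all genes) and 14 intermediate, with a median of 9.39, and without replicate 3 the bright ones numbered 5. Dntt, the polymerase that adds bases at antigen receptor joints, read 12.38, 11.93 and 12.20, a range smaller than 0.5. Mef2c, a factor of lymphoid progenitors, read 11.18 ± 0.38 (SD, n = 3). Rag1, the recombinase, was at 10.24, 7.06 and 6.69, far higher in replicate 1 than in the others. Ikzf1, although a central lymphoid factor, was near background at 5.05 on its single probe set. Of 21 B cell genes 9 were near background (42.9%, against 36.1% of all genes). The bright ones numbered 3 (14.3%, close to the 10% of all genes). They were Ighm, the constant region of the mu heavy chain (12.32 ± 0.14), Cd24a (12.14 ± 0.13) and Jchain (11.42 ± 0.34; SD, n = 3 each), while Pax5 and Cd79a were near background. Of 26 T and NK cell genes 0 were bright and 16 near background; Nkg7 (10.04) and Lat (9.60) led.

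The myeloid list was split. Of 21 neutrophil and granulocyte genes 3 were bright (14.3%, against 10% of all genes), 6 intermediate and 12 near background (57.1%, against 36.1%). The bright ones were enzymes of the primary granules that promyelocytes make first. Mpo, myeloperoxidase, read 12.04, 11.98 and 12.64, Prtn3, proteinase 3, 11.50 ± 0.29 (SD, n = 3) and Ctsg, cathepsin G, 10.93, 10.31 and 12.09. All 3 were highest in replicate 3. Elane, neutrophil elastase, a neighbour of these enzymes in the same granules, was near background at 6.04 and is named after its value was seen. Of 26 genes of monocytes, macrophages and dendritic cells 0 were bright and 11 near background. Irf8 (10.50), H2-Ab1 of MHC class II (10.49) and Lyz2, lysozyme (10.44), were the brightest, and C1qa, a complement gene of tissue macrophages, was at 4.14. Of 17 mast cell and basophil genes 3 were bright (17.6%, against 10% of all genes) and 9 near background (52.9%, against 36.1%). Srgn, the core protein of granule proteoglycans, read 12.35 ± 0.03 (SD, n = 3), Kit and Gata2 were the other two, and the protease gene Mcpt4 was at 4.22.

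Of 23 megakaryocyte and platelet genes 3 were bright (13.0%, against 10% of all genes), 16 intermediate and 4 near background. Their median was 8.42. F2r, the thrombin receptor, stood at 11.78 and Plek, pleckstrin, at 11.14, beside Nfe2. Vwf, von Willebrand factor, was at 8.80, 10.04 and 9.94, lowest in replicate 1. Of 20 erythroid genes 2 were bright, 12 intermediate and 6 near background. Car2, carbonic anhydrase 2, read 12.48, 12.76 and 12.13, and Tfrc, the transferrin receptor, 11.04 ± 0.21 (SD, n = 3). Urod of haem synthesis was at 10.17, while Hba-a1, the alpha globin gene of red cells, was near background at 4.35. Probe sets given to several genes were not ranked, so this value need not cover all alpha globin signal. Of 27 stromal and endothelial genes 1 was bright and 16 near background. The bright one was Vim, vimentin, at 12.02, which blood cells also express. Adipoq (4.43) was the dimmest, and Cxcl12 (5.76), Cdh5 (5.43) and Col1a1 (5.03), defining genes of niche cells, endothelium and bone named after their values were seen, were near background.

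Genes of the dividing cell were largely above background. Of 44 measured genes of replication and S phase 18 were bright, with a median of 10.35, led by Pcna, the sliding clamp, at 12.40, Mcm7 at 12.26 and Mcm6 at 11.97 of the replicative helicase. Of 43 mitotic genes 7 were bright and 36 intermediate, with a median of 9.63, led by Cks1b (11.88) and Cks2 (11.80), small partners of cyclin-dependent kinases. Of 28 regulators of G1 3 were bright (10.7%, against 10% of all genes). These were Cdk4 at 11.73 ± 0.05, Ccnd2, cyclin D2, at 11.62 ± 0.14 and Tfdp1 at 11.06 ± 0.05 (SD, n = 3 each). Cdkn2b, an inhibitor of Cdk4, was near background at 4.18. The inhibitors Cdkn1c and Cdkn1b, tied to stem cell rest and named after their values were seen, were intermediate at 9.33 and 9.12. Of 36 genes of the p53 pathway and the Bcl2 family 4 were bright (11.1%, against 10% of all genes). Among them was Mcl1, a survival protein that stem cells depend on, at 11.74.

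Of 43 interferon-stimulated genes 9 were bright, 30 intermediate and 4 near background, with a median of 9.59. Ifi47, an interferon-inducible GTPase, read 11.81 ± 0.06 (SD, n = 3), Psmb9 of the immunoproteasome 11.59 and Trim25 11.44. The antiviral genes Mx2 (4.40) and Mx1 (5.97, named after its value was seen) were near background. Of 16 genes of MHC class I and antigen processing 10 were bright, with H2-K1 at 12.67, B2m at 12.62 and H2-D1 at 12.38. The 11 MHC class II genes were intermediate, led by H2-DMa (10.64) and H2-Ab1 (10.49). Of 37 immediate early and stress genes 5 were bright and 11 near background. Hspa8, the constitutive heat shock protein, read 12.77 and Zfp36l2, an RNA-binding protein, 12.48. Of genes named after their values were seen, Egr1 was intermediate at 9.64, and Fos and Jun were dim at 7.02 and 7.19.

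Several gene families were picked after the values were seen. Of 18 hnRNP genes, which package nuclear RNA, 15 were bright, and of 9 Srsf splicing factors 7 were. Of 71 mitochondrial ribosomal proteins 7 were bright and 64 intermediate. By contrast 30 of 31 olfactory receptors, 29 of 36 keratins and 45 of 50 potassium channel genes were near background. Of the 116 genes of other organs, whose own values set the limit, 12 lay above it. Mbp, named for myelin although its locus also gives transcripts in blood cells, read 10.86 ± 0.11 (SD, n = 3), Kap 8.95 and Cela1 8.71.

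The spread among the 3 arrays differed by band. The median SD was 0.178 in bright, 0.288 in intermediate and 0.205 in near-background genes, where the offset of 16 compresses differences. An SD above 0.5 was found in 1363 of the 12393 genes (11.0%), and in 1074 of the 7925 above background (13.6%). The first count was 3073 with an offset of 1 in place of 16 and 843 with an offset of 50. Only 29 of the 1239 bright genes (2.34%) were among them. In 600 of the 1074 the array farthest from the middle value was replicate 2, against 276 for replicate 1 and 198 for replicate 3. Replicate 2 also had the highest 3′ to 5′ ratios of Gapdh and Actb, closely followed by replicate 3 for Actb, and the part of RNA quality in its values was not tested.

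**Figure D4:**
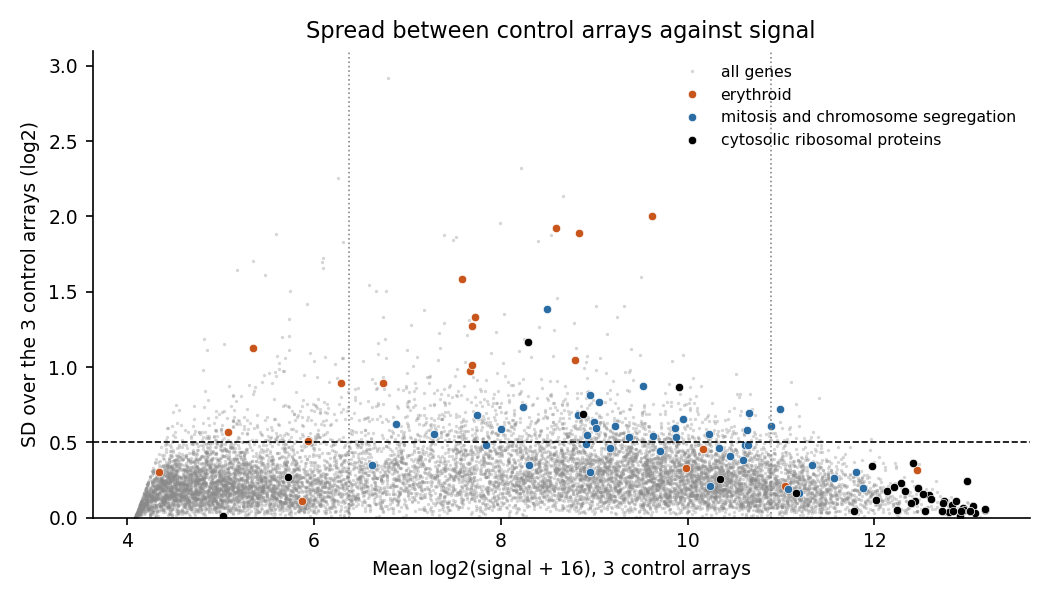
SD of log2(signal + 16) over the 3 control arrays (y axis) against the mean (x axis), all genes in grey and 3 lists in colour; the dashed line is the SD limit of 0.5 and the dotted lines are the limits of the bands. Of 14 erythroid genes above background 10 lie above the dashed line, as do 24 of 43 mitotic and 3 of 40 ribosomal protein genes.

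Among the lists, erythroid genes had the highest median SD, 0.933 beside 0.243 over all genes, and 10 of the 14 above background had an SD above 0.5. Klf1 is given above. Car1, carbonic anhydrase 1, had signals of 160, 2735 and 1006, and Ermap, a membrane protein of erythroid cells, of 70.2, 1091 and 593 in replicates 1, 2 and 3. Both ran in the order of Klf1, lowest in replicate 1 and highest in replicate 2. Of the 14 genes 13 were highest in replicate 2, against 37.6% of all genes above background, and 11 were lowest in replicate 1, against 33.8%. The median difference was 1.92 between replicates 2 and 1 and 0.97 between replicates 3 and 1. The summed signal of the 20 erythroid genes was 10760, 21250 and 12060. Car2 and Tfrc, the brightest, differed less among the arrays, and Hba-a1 stayed near background in each. Aqp1, a water channel of red cells among others, and Mt1, metallothionein 1, both among the genes with the highest SD above the median, had the same order, with signals of 198, 1325 and 905 for Aqp1 and of 121, 1011 and 401 for Mt1.

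The promoters of these erythroid genes are shown because the letters GATAA, the core bound by Gata1 and Gata2, were more frequent there than over all genes. In the 300-base windows GATAA or its reverse complement TTATC was found in 10 of 15 erythroid genes (66.7%), in 18.6% of the genes of the arrays and in 25.8% of all promoters. Of 8 variable erythroid genes above background with a promoter 7 held it. The 150 bases before the start of Ermap (chr4:119189996-119190145, minus), Klf1 (chr8:84901832-84901981, plus), Rhd (chr4:134864386-134864535, plus) and Epor (chr9:21963577-21963726, minus) carry the match in capitals, and a match is not evidence of binding.
Ermap: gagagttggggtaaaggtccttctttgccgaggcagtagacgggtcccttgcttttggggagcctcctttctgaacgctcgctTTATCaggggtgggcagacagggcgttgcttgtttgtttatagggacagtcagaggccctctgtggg
Klf1: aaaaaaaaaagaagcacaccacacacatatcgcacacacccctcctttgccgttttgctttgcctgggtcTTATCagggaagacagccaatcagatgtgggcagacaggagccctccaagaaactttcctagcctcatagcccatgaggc
Rhd: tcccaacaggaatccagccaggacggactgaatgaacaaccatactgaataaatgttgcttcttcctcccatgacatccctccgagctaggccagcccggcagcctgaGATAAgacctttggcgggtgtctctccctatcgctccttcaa
Epor: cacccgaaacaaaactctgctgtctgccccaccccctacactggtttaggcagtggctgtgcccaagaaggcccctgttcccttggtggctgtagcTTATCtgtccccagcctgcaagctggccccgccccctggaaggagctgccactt

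Mitotic genes had a median SD of 0.542, and 24 of 43 were above 0.5. Ube2c, the ubiquitin-conjugating enzyme of the anaphase-promoting complex, was at 7.14, 9.91 and 8.45, and Cenpf, a kinetochore protein, at 8.52, 9.95 and 10.11. Both were lowest in replicate 1, while the highest array differed between them. Cdk1, the kinase of mitotic entry, was at 10.07, 11.43 and 10.49, and Mki67, the proliferation antigen, at 10.16, 11.49 and 11.31, both named after their values were seen. Of the 43 genes 41 were lowest in replicate 1, against 33.8% of all genes above background, and 43 were lower in replicate 1 than in replicate 3, against 53.1%. The median differences from replicate 1 were 0.996 in replicate 2 and 0.752 in replicate 3. Of 43 replication genes above background 28 were lowest in replicate 1, with smaller median differences of 0.282 and 0.264. Of 76 genes of oxidative phosphorylation above background 47 were highest in replicate 2, against 37.6% of all genes above background. Bright replication genes were not alike in spread. Mcm7 differed little among the arrays, at 12.26 ± 0.03, while Pcna read 12.40 ± 0.24 and Top2a 11.10 ± 0.60 (SD, n = 3 each).

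The letters CCAAT or ATTGG, the site of the factor NF-Y, stood in 26 of 35 mitotic promoters (74.3%), in 38.1% of the genes of the arrays and in 37.9% of all promoters. Of 19 variable mitotic genes with a promoter 15 held them, near the share of the whole mitotic list. The letters were not particular to mitotic genes. They stood in 75.9% of ER chaperone and 71.4% of MHC class I promoters, but in 22.2% of those of translation factors. The matches are in capitals in the 120 bases before the start of Ube2c (chr2:164769809-164769928, plus), Cenpf (chr1:189688087-189688206, minus), Cenpe (chr3:135212443-135212562, plus) and Cdk1 (chr10:69352913-69353032, minus).
Ube2c: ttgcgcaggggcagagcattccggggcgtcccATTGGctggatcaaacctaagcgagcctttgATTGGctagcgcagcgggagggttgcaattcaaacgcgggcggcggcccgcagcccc
Cenpf: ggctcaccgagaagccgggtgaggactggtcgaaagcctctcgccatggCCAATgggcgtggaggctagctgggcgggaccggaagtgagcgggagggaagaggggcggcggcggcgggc
Cenpe: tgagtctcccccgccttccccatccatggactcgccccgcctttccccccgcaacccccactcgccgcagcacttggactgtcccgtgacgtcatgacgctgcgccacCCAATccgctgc
Cdk1: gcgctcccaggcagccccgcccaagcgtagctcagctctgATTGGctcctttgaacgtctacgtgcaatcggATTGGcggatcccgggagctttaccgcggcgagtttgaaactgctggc

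Genes of late granulocytes differed in another way, and their list had a median SD of 0.903. Ngp, a protein of the secondary granules, had signals of 1132, 16.5 and 21.1 in replicates 1, 2 and 3, and S100a8, a calcium-binding protein abundant in neutrophils, of 440, 19.6 and 11.6. Camp (204, 7.96 and 5.70), Ltf (258, 18.2 and 19.2) and Lcn2 (143, 1.64 and 8.36), named after their values were seen, had the same form. These 5 genes were above the background limit in replicate 1 and below it in replicates 2 and 3, so their means hide a signal in 1 array. Prg2, the major basic protein of eosinophils, was on the log2 scale at 10.75, 6.18 and 7.73. Of all 21 measured genes of the granulocyte list 14 were highest in replicate 1 (66.7%, against 30.4% of all genes), although 12 of the 21 were near background by their mean. Such a share was not particular to granulocyte genes. It was 61.9% for early lymphoid genes, 57.1% for B cell genes and 55.2% for stem and progenitor surface proteins. Mitotic (0%) and replication genes (11.4%) went the other way. Of the 9 granulocyte genes above background 3 were highest in replicate 1, against 29.3% of all genes above background, while Mpo, Prtn3 and Ctsg were highest in replicate 3. The defining surface marker Itgam read 5.51, 5.01 and 4.78 on the log2 scale. It was below the background limit in each array and was also highest in replicate 1. The part of mature granulocytes in replicate 1 was not tested.

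Several stem cell factors and genes of other lists were low in replicate 2. Of 43 stem cell factors above background 26 (60.5%) were lowest there, against 37.6% of all genes above background. Other lists had similar shares, among them lineage factors (62.5%), immediate early and stress genes (61.5%) and ER chaperones (54.3%). Erythroid (0%) and mitotic genes (4.65%) went the other way. The low stem cell factors included Fli1 at 10.11, 8.75 and 9.66 and Klf6 at 9.46, 7.88 and 9.11. The monocyte genes Mpeg1, at 10.69, 8.71 and 10.45, and Ly86, at 8.22, 6.61 and 9.29, had the same low array, as had F13a1, at 8.44, 6.71 and 10.45. Of the 15 genes of the monocyte list above background 7 were lowest in replicate 2 and 4 highest there, so the list did not share the order of these genes. Trim34a, a member of the TRIM family, was at 9.61, 6.28 and 9.29. Dusp6, a phosphatase of the MAP kinase pathway, was at 9.90, 7.43 and 8.38. Single genes stood apart in replicate 3: Hspa1b, the inducible heat shock protein, was at 7.52, 7.33 and 11.13, and its neighbour and near copy Hspa1a at 5.10, 5.12 and 8.05. Probe sets of this pair may share transcripts, so the values are not independent.

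**Figure D5:**
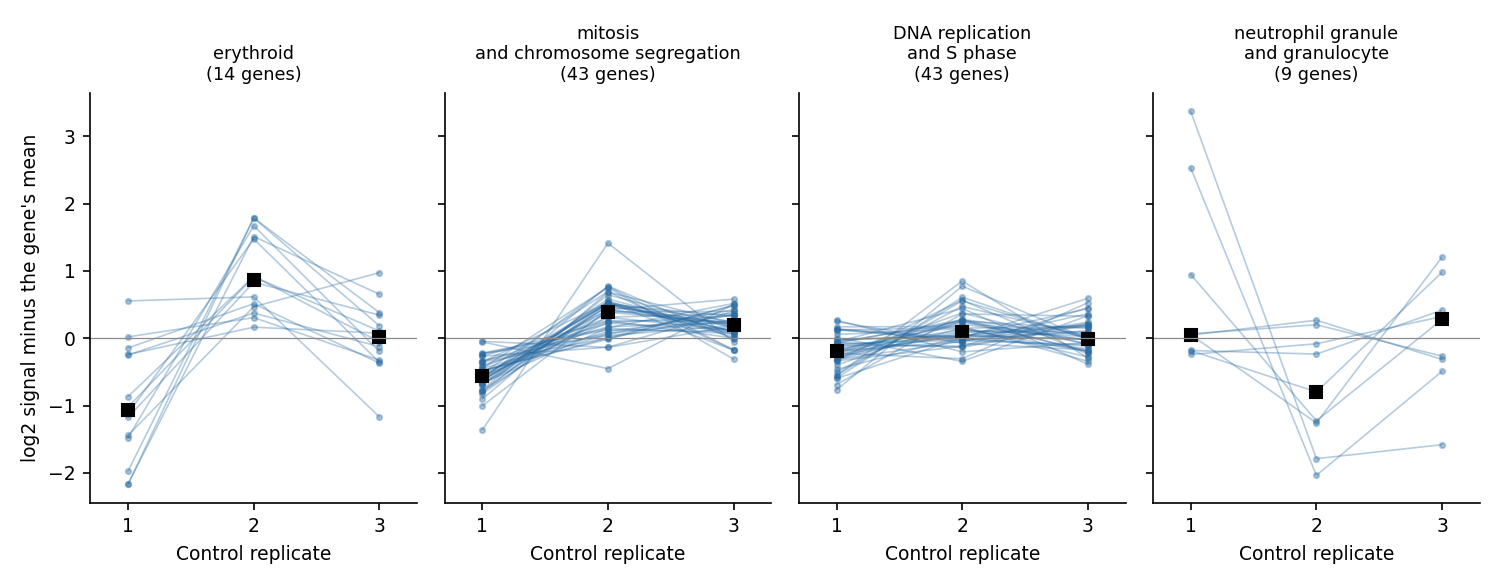
Log2(signal + 16) of each gene minus its mean over the 3 control arrays (y axis) in replicates 1, 2 and 3 (x axis), for the members of 4 lists above background; thin lines join the values of a gene and imply no order, and squares are medians. The median difference between replicates 2 and 1 is 1.92 for erythroid, 0.996 for mitotic and 0.282 for replication genes.

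The sex-linked genes bear on what each array holds. Xist, transcribed from the inactive X chromosome of females, was bright in all 3 arrays at 11.82, 11.39 and 11.31. The Y-linked genes Eif2s3y, at 8.52, 9.06 and 10.14, and Kdm5d, at 6.51, 6.94 and 8.10, were above the background limit in each array as well, and both were highest in replicate 3. Uty was at 6.41, 6.27 and 7.75, so replicate 1 lay barely above the background limit of 6.38. With the probe sets of a gene averaged, 0 sex-linked genes were bright. Each array thus gave signal for Xist and for 2 or 3 of the Y-linked genes, and the labels do not name the sex of the mice.

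The bands differed in the sequence of their promoters, which the ranking did not use. Of the 12393 genes 9887 had a promoter in the RefSeq table. The observed over expected ratio of CpG in the 300 bases had a median of 0.840 in bright, 0.779 in intermediate and 0.385 in near-background genes, beside 0.706 over the 9887 genes of the arrays and 0.389 over all promoters of the table. The GC box GGGCGG, on either strand, stood in 68.2%, 66.3% and 39.8% of the 3 bands, in 57.5% of the genes of the arrays and in 35.9% of all promoters. The letters TATAAA, on the coding strand from 40 to 20 bases before the start, stood in 1.37%, 1.14% and 6.00% of the bands, in 2.81% of the genes of the arrays and in 2.22% of all promoters. They were found in 22.2% of the genes of other organs. CCGGAAG stood in 20.4%, 20.1% and 4.98% of the bands and in 15.02% of the genes of the arrays. Bright and intermediate genes lay close to each other in these values and near-background genes lay apart from both. Matches of different motifs may overlap, and no test was made of these shares.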

How the data were processed

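RNA of KSL cells from 3 control samples was extracted on Qiagen microcolumns and labelled by the Affymetrix two-cycle protocol, per the labels' protocols. This amplifies the RNA before hybridisation, which favours 3′ ends. The values the authors deposited are signal intensities per probe set on a linear scale; their summarisation algorithm is not given in the sources used here. Of 22690 probe sets, 64 controls were set aside. Intensities were turned into log2(signal + 16) and quantile normalized over the 3 control arrays with Python 3.11.15, pandas 2.3.3 and NumPy 2.4.6; printed signals are as deposited. A platform table gave 1 symbol to 20380 probe sets, several to 691 and none to 1555, and the brightest single-symbol probe set stood for each gene. The steps were tested on simulated data.

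The members and the 38 lists were chosen with earlier results of these data known. Genes were named by rule: the 20 brightest, the gate markers, per list the 3 brightest and the dimmest (up to 8 more for regulators and receptors) with up to 3 variable members, the 12 highest SDs above the median, and the 10 list members nearest the background limit. Others are stated to be chosen after their values were seen. Alternatives changed the offset, normalization, probe set rule, background limit and arrays. Precision is limited by 3 arrays.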

Additional observations from a re-analysis of the deposited data

How the results depend on the processing

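The count of variable genes depended on the offset: 1363 with 16, 3073 with 1 and 843 with 50. It ranged from 991 to 1790 when each array was left out in turn, was 1385 without normalization, 1393 with quantiles over 9 arrays and 1000 when a gene's probe sets were averaged. Genes near background numbered from 4423 to 4487 when an array was left out, 3592 with the 75th and 4892 with the 95th percentile of the reference genes and 4668 with averaged probe sets. With averaged probe sets the count of bright members changed in several lists. It fell to 0 for Kit as gate marker, 0 Hox genes, 2 integrins and homing receptors, 2 Notch genes, 1 erythroid gene, 8 Polycomb and chromatin genes, 3 immediate early genes, 10 ER chaperones and 0 sex-linked genes. It rose to 2 lineage factors, 5 neutrophil genes, 2 monocyte genes, 5 G1 regulators and 1 MHC class II gene. Bright early lymphoid genes numbered from 4 to 5 when an array was left out, 5 without replicate 3 and 3 with every array. In all 331 of 348 recomputed values stayed within their limit and 17 moved. The counts of erythroid, mitotic, replication and oxidative phosphorylation genes by highest or lowest array, whose alternatives were chosen after seeing the data, changed by at most 2. No paired analysis was possible because the results come from 1 group and from no test.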
